A study of Mus musculus with 6 samples.

Results

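Of the 7 Schlafen genes followed here, 1 passed the test between dendritic cells from MAVS knockout (MAVS KO) and wild-type (WT) mice. Slfn1 was higher in the knockout libraries by 2.19-fold. Slfn2, by far the most abundant family transcript, had a much smaller difference and did not pass. Slfn3, Slfn4, Slfn5, Slfn8 and Slfn9 did not pass either. The genes were chosen by name: the 7 rows of the count table whose Ensembl mouse identifiers map to these symbols, of 26519 genes in all. The libraries were bulk RNA-seq of dendritic cells taken from MC38 tumours, a mouse colon carcinoma line, on day 10 after the tumour cells were given. There were 3 WT hosts' libraries and 3 MAVS KO hosts' libraries, and in both groups the genotype is that of the host, while the same MC38 cells formed the tumour. The labels name no strain, age or sex and do not say how the knockout was made, how the cells were isolated from the tumour, or whether each library came from its own mouse. The p-values therefore measure only the spread between these libraries, which may be technical.

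Schlafen genes encode growth-regulatory and antiviral proteins found in mammals, and many are induced by type I interferon in myeloid cells and lymphocytes. The mouse genes fall into 3 classes by protein length: short (Slfn1 and Slfn2), intermediate (Slfn3 and Slfn4) and long (Slfn5, Slfn8 and Slfn9), the long ones carrying a helicase-like part that the others lack. SLFN2 is known for holding T cells and monocytes in quiescence and for protecting transfer RNAs from cleavage. MAVS is the mitochondrial adaptor through which RIG-I-like RNA sensors switch on interferon genes.

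The 6 libraries held 14466640 to 20851733 counts, and the first principal component of the 500 most variable genes separated the groups (WT at -23.8 to -11.9, MAVS KO at 4.06 to 32.6). Mavs, which lies on chromosome 2 at 131234063 to 131248025 (GRCm38), fell from 37.7 ± 3.32 to 10.4 ± 2.09 CPM (counts scaled to a common library total; SD, n = 3 each), a log2 difference of -1.86 (SE 0.18, edgeR quasi-likelihood adjusted p = 0.0017), with reads left in all 3 knockout libraries. Class II genes marked all libraries (Cd74 at 18160 and 21440 CPM on average), but macrophage markers were also high, summing to 25320 to 30540 CPM in WT and 26710 to 34410 in MAVS KO (10 of 10 detected). Of 7 general dendritic cell genes 2 fell and 0 rose, with a median log2 difference of 0.029: Flt3 and Zbtb46 went from 49.9 ± 20.7 to 12.4 ± 2.64 CPM and from 20.1 ± 6.51 to 8.75 ± 1.93 CPM (SD, n = 3 each; edgeR adjusted p = 0.011 and 0.0402), while Itgax stood at 245.7 ± 27.4 and 292.7 ± 22.3 CPM and did not pass. Summed markers did not overlap between the groups for monocytes (8 of 8 detected; 5883 to 6670 against 8879 to 17530 CPM, with Fn1 the largest part in WT and Chil3 in MAVS KO), cDC2 (7 of 7; 2360 to 2627 against 2730 to 4405), mature dendritic cells (8 of 8; 589 to 643 against 697 to 887), plasmacytoid dendritic cells (7 of 7; 106.8 to 133.1 against 133.3 to 150.8) and B cells (5 of 7, Pax5 and Fcmr without a count; 31.5 to 52.2 against 10.2 to 12.0). Of all tested genes taken singly, 21.8% did not overlap. The plasmacytoid sums nearly touched and were mostly Bst2 (61.6 and 82.2 CPM on average) and Tcf4 (56.1 and 54.5). That list had a median log2 difference of 0.012 and 0 genes called. Single genes did not all follow their sum: of the cDC2 genes 4 of 7 had values below 0, and Cd209a fell from 80.1 ± 17.1 to 22.2 ± 7.36 CPM (SD, n = 3 each; edgeR adjusted p = 0.00806). Of the monocyte genes 4 of 8 had values below 0 (median -0.025). The fit called 2 of 8 higher and 0 lower: Chil3 (2.46, edgeR adjusted p = 0.036) and F10 (0.68, edgeR adjusted p = 0.0253). For Ccr2, which did not pass, every knockout library lay below every WT library. Of the mature dendritic cell genes 8 of 8 had values above 0 (median 0.84), and 3 rose and 0 fell. Their sum was mostly Tmem123 (451.8 and 498 CPM on average), which did not pass. Among 10 macrophage genes 7 had values above 0, with a median of 0.32 and 0 called. Their groups did not overlap for 5 higher and 1 lower, beside 11.2% and 10.6% of all tested genes. The sums for cDC1, T cells, natural killer cells, neutrophils and MC38 epithelium overlapped. Of the cDC1 genes, however, 8 of 9 had values below 0 (median -0.87), and 4 fell and 0 rose. The cDC1 sum was mostly Irf8 (377.8 and 436.3 CPM on average), which did not pass. Of all tested genes, 1.76% were called higher and 1.05% lower. In bulk samples fewer cells of a type and less RNA per cell cannot be told apart, and the part of these marker shifts in the Schlafen values was not tested.

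Slfn2 was the dominant Schlafen transcript in every library. Per kilobase of its longest transcript it averaged 227 CPM over the 6 libraries, 9.1 times Slfn1, which came next at 24.96 CPM per kb. Slfn8 followed at 5.09, Slfn5 at 2.18, Slfn4 at 2.15, Slfn9 at 1.14 and Slfn3 at 0.511 CPM per kb. The steps from Slfn2 to Slfn1 and from Slfn1 to Slfn8 held in 6 of 6 libraries with ranges that did not overlap. Slfn5 and Slfn4 could not be ordered: Slfn5 was above Slfn4 in 3 of 6 libraries, and with the length of all exons joined their means swapped to 2.06 and 2.15 CPM per kb. The other neighbours kept their order in all 6 libraries, although the ranges of Slfn8 and Slfn5, and of Slfn9 and Slfn3, overlapped across libraries. Of the tested genes, 97.6% lay below Slfn2 on this per-length scale, 80.7% below Slfn1, 51.4% below Slfn8 and 11.7% below Slfn3. The family as a whole took 0.0423% to 0.0512% of each library's counts.

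**Figure D1:**
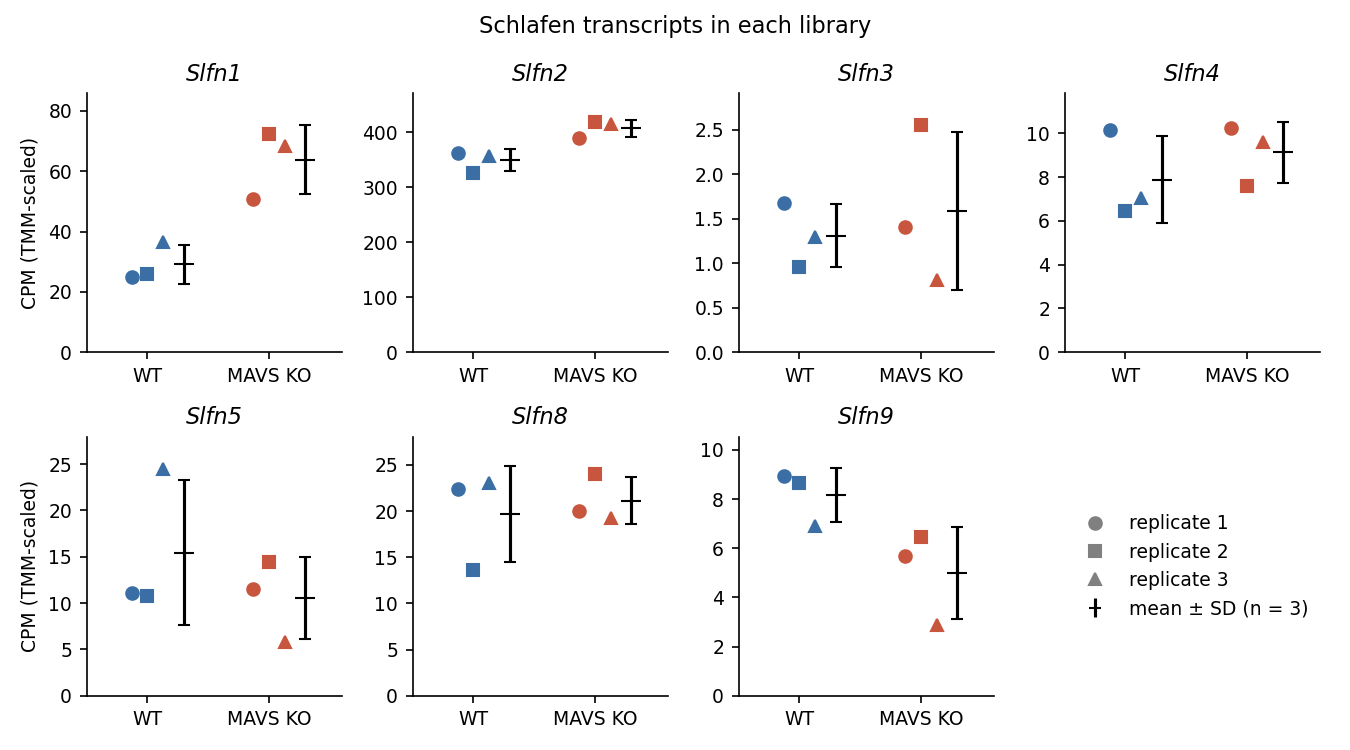
Level of each Schlafen gene in each of the 6 libraries, in CPM on linear axes from 0, 1 panel a gene, with the 3 WT and 3 MAVS KO points by replicate and the mean ± SD of each group. The MAVS KO points of Slfn1 (50.9 to 72.5 CPM) all lie above the WT points (25.04 to 36.5 CPM), those of Slfn2 lie just above, those of Slfn9 lie below, and the others overlap.

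Among the short members, Slfn1 (ENSMUSG00000078763, chr11:83116849-83122670, plus strand) is a small Schlafen protein known for restraining T cell growth when expressed at high level. It stood at 25.04, 25.9 and 36.5 CPM in the 3 WT libraries (508, 485 and 793 counts) and at 50.9, 72.5 and 68.3 CPM in the 3 MAVS KO libraries (906, 1081 and 933 counts). Every knockout library was above every WT library. The means were 29.2 ± 6.40 and 63.9 ± 11.5 CPM (SD, n = 3 each), a log2 difference of 1.13 (SE 0.19, 95% interval 0.72 to 1.55, edgeR adjusted p = 0.0171). The call held under all 8 other settings of scaling, filter, model and block. It was lost when WT replicate 2, MAVS KO replicate 2 or MAVS KO replicate 3 was left out (log2 difference 1.04, 1.03 and 1.08; edgeR adjusted p = 0.052, 0.0709 and 0.0889), while the difference itself stayed between 1.02 and 1.33 over the 6 such fits. Monocyte and mature dendritic cell marker sums were higher in the same 3 libraries, and their part in the Slfn1 difference was not tested.

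Slfn2 (ENSMUSG00000072620, chr11:83065112-83070678, plus strand), the quiescence and transfer RNA protection factor, was at 363, 326 and 357 CPM in WT (7361, 6104 and 7760 counts) and at 390, 418 and 414 CPM in MAVS KO (6935, 6231 and 5658 counts). The knockout libraries lay above the WT libraries here too, but the step was small beside that of Slfn1. The means were 349 ± 20.0 and 407 ± 15.5 CPM (SD, n = 3 each), a log2 difference of 0.22 (SE 0.096, 95% interval 0.011 to 0.44), which did not pass (edgeR adjusted p = 0.291). Scaling by library size alone, which moved the median log2 difference of all genes from -0.0022 to -0.17, left 0.055 for Slfn2 and 0.96 for Slfn1. Slfn2 varied least of the family within a group, with a coefficient of variation of 5.72% in WT and 3.798% in MAVS KO.

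In TMM-scaled CPM, Slfn1 and Slfn2 were the only members whose knockout libraries all lay above the WT libraries. Scaled by library size alone, the Slfn2 groups overlapped (log2 difference 0.055), while those of Slfn1 did not. The 100 bases before both starts are shown because of the CPM result, in the direction of the gene (RefSeq starts, GRCm38.p6). They are chr11:83116720-83116819 for Slfn1 and chr11:83065012-83065111 for Slfn2, both plus strand. Capitals mark the longest run that both 300-base start windows share, 12 bases.
Slfn1: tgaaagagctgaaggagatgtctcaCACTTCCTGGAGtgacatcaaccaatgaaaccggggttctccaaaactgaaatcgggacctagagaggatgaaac
Slfn2: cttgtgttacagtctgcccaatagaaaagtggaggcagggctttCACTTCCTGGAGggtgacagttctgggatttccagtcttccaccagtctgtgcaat
Part of the run is not limited to this pair: Slfn1 and Slfn4 share 15 bases and Slfn2 and Slfn4 share 11 in their windows. The Slfn3 window holds 9 bases of the run, which it shares with Slfn4. Levels of Slfn3 and Slfn4 overlapped between the groups.

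The intermediate members were low and did not differ between the groups beyond the spread of the libraries. Slfn4 (ENSMUSG00000000204, chr11:83175186-83190216, plus strand), which is induced by interferon and Toll-like receptor ligands in macrophages, was at 10.2, 6.46 and 7.05 CPM in WT and at 10.2, 7.58 and 9.60 CPM in MAVS KO. The log2 difference was 0.21 (SE 0.25, 95% interval -0.35 to 0.77, edgeR adjusted p = 0.769). Slfn3 (ENSMUSG00000018986, chr11:83191330-83215154, plus strand), best known from gut epithelium and T cells, rested on 34, 18 and 28 counts in WT and 25, 38 and 11 in MAVS KO. At 1.68, 0.961 and 1.29 CPM against 1.40, 2.55 and 0.806 CPM, its knockout libraries held both the highest and the lowest value. The interval of its log2 difference, -0.97 to 1.52 around 0.28 (SE 0.56, edgeR adjusted p = 0.873), leaves room for a change of the size seen in Slfn1, and the sign turned without MAVS KO replicate 2 (-0.23). Depth limits the statement on Slfn3 more than on any other member.

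The long members did not move as a group. Slfn9 (ENSMUSG00000069793, chr11:82978390-82991830, minus strand) was at 8.92, 8.65 and 6.91 CPM in WT (181, 162 and 150 counts) and at 5.67, 6.44 and 2.86 CPM in MAVS KO (101, 96 and 39 counts). It was the 1 member with every knockout library below every WT library. The means of 8.16 ± 1.09 and 4.99 ± 1.89 CPM (SD, n = 3 each) gave a log2 difference of -0.70 (SE 0.32, 95% interval -1.41 to -0.0038), which did not pass (edgeR adjusted p = 0.31). Slfn8 (ENSMUSG00000035208, chr11:83002158-83020810, minus strand), the neighbour and near copy of Slfn9, was at 22.4, 13.7 and 23.0 CPM in WT and at 20.1, 24.0 and 19.3 CPM in MAVS KO. The groups overlapped, and the log2 difference of 0.099 (SE 0.22, 95% interval -0.38 to 0.58, edgeR adjusted p = 0.884) turned to -0.067 with library size alone and to -0.11 without WT replicate 2. Slfn5 (ENSMUSG00000054404, chr11:82951349-82964840, plus strand), a nuclear protein known as a transcriptional co-repressor of interferon-stimulated genes, was at 11.1, 10.8 and 24.5 CPM in WT and at 11.5, 14.5 and 5.79 CPM in MAVS KO. A single library stood apart in each group, WT replicate 3 above and MAVS KO replicate 3 below. The log2 difference of -0.54 (SE 0.38, 95% interval -1.39 to 0.30, edgeR adjusted p = 0.561) came to -0.042 without WT replicate 3.

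All 7 genes passed the filter on low counts. The fit called 1 of 7 higher and 0 lower, beside 2.81% of the 12580 genes tested (1.76% higher and 1.05% lower). With 7 genes 1 call is the smallest count above 0. The groups did not overlap for 3 of 7, beside 21.8% of all tested genes: 2 of 7 higher (11.2% of all) and 1 of 7 lower (10.6% of all). At an unadjusted edgeR p under 0.05 there were 3 of 7 (Slfn1, Slfn2 and Slfn9), beside 16.0%. The median log2 difference of the 7 was 0.21 against -0.0022 over all genes, with 5 values above 0 and 2 below, of which Slfn8 crossed 0 with library size alone. Summed into one row, the 7 genes stood at 442, 392 and 457 CPM in WT and 489, 545 and 521 CPM in MAVS KO. The log2 difference was 0.27 (SE 0.10, 95% interval 0.045 to 0.49, not adjusted over genes). Slfn2 made up 76.6% to 83.1% of those counts in each library, and the called Slfn1 is part of the sum. As a share of each library's counts the family overlapped between the groups: 0.0467%, 0.0423% and 0.0476% in WT, and 0.0462%, 0.0512% and 0.0492% in MAVS KO.

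**Figure D2:**
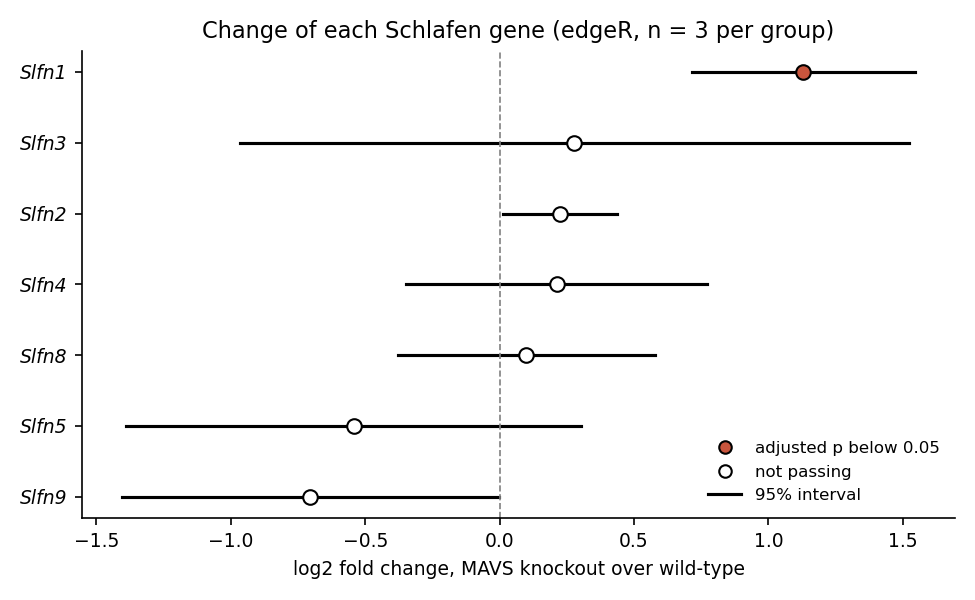
Log2 difference of each Schlafen gene between MAVS KO and WT libraries with its 95% interval from the edgeR fit (3 libraries a group), filled where the adjusted p was below 0.05. Slfn1 at 1.13 is the single filled point, Slfn2 at 0.22 has the narrowest interval, and Slfn3, from -0.97 to 1.52, has the widest.

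The balance between members was compared within each library, where the scaling between libraries cancels. For every 100 Slfn2 counts there were 6.90, 7.95 and 10.2 Slfn1 counts in WT and 13.1, 17.4 and 16.5 in MAVS KO. The knockout libraries were all higher, with means of 8.36 ± 1.696 and 15.6 ± 2.27 (SD, n = 3 each) and a log2 difference of 0.91. For every Slfn9 count there were 2.51, 1.58 and 3.33 Slfn8 counts in WT and 3.54, 3.73 and 6.74 in MAVS KO, again without overlap (log2 difference 0.92). Slfn1 counts per Slfn9 count, the pair of members that moved furthest apart, went from 2.81, 2.99 and 5.29 to 8.97, 11.3 and 23.9. These ratios were chosen with the single-gene values known. Each of these 3 gave p = 0.1 in a two-sided exact permutation test, the smallest that 20 arrangements of 3 against 3 allow (0.125 after Benjamini-Hochberg adjustment over the 5 quantities computed), so this test cannot go below 0.05 here.

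**Figure D3:**
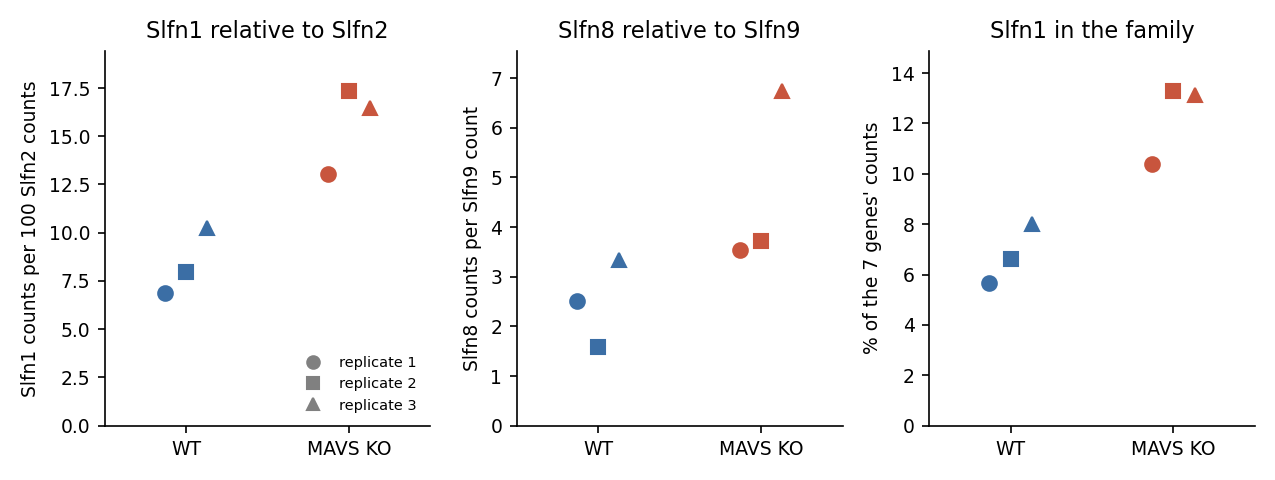
Slfn1 counts per 100 Slfn2 counts, Slfn8 counts per Slfn9 count, and the percentage of the 7 genes' counts in Slfn1, for each library by group, on linear axes from 0. Slfn1 per 100 Slfn2 runs from 6.90 to 10.2 in WT and from 13.1 to 17.4 in MAVS KO, and Slfn8 per Slfn9 from 1.58 to 3.33 and from 3.54 to 6.74. Slfn1 holds 5.66% to 7.998% of the family in WT and 10.4% to 13.3% in MAVS KO.

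How far reads can tell the members apart differs between them. In GENCODE transcripts, Slfn1 shared 0.606% of its 50-base words with any other gene and Slfn2 shared 4.27%, so by exact words the short members were mostly distinct. Over 379 aligned bases, however, Slfn2 was 95.3% identical to Slfn3 and 94.7% identical to Slfn4. Slfn3 shared 16.0% and Slfn4 11.3%, partly with each other, and their transcripts were 92.9% identical over 1406 aligned bases. Slfn8 and Slfn9 were 92.6% identical over 3496 bases. Slfn8 shared 9.30% of its words with Slfn9 and 10.1% with Slfn10-ps, a transcribed Schlafen pseudogene between Slfn8 and Slfn2. Counts of Slfn8 and Slfn9 are therefore uncertain where reads could be assigned to either. Their sum with Slfn10-ps, which is unaffected by how reads are split among the 3, differed by a log2 of 0.082 (SE 0.19, 95% interval -0.33 to 0.49). Within that sum the share of Slfn9 was 20.95%, 32.3% and 18.0% in WT and 13.7%, 16.1% and 8.82% in MAVS KO, a mean difference of -10.9 percentage points (two-sided exact permutation p = 0.1, the smallest possible). Slfn10-ps itself went from 8.03 ± 3.44 to 11.9 ± 3.40 CPM (SD, n = 3 each), with overlapping groups (log2 difference 0.56, SE 0.34, edgeR adjusted p = 0.472). The sum of Slfn3 and Slfn4 differed by 0.22 (SE 0.23, 95% interval -0.30 to 0.74). Slfn5 shared 7.39% of its words with Slfn5os and overlaps it on the opposite strand over 9333 bases of gene span. Slfn2 overlaps the antisense gene Gm20234 over 4927 bases of gene span, with no 50-base word in common. No source used here gives the strand setting of the counting, so reads from the sequence that Slfn5 and Slfn5os share cannot be assigned to one of them.

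Start windows of the 7 genes (250 bases before to 50 after the RefSeq start, GRCm38.p6, 7 of 7 matched) were searched for letters of 3 binding sites tied to the pathways that induce Schlafen genes. The letters were GAAA, any 2 bases, then GAAA for the interferon-stimulated response element (TTTC, any 2 bases, then TTTC on the other strand), TTCNNNGAA for the interferon-gamma-activated site and TGANTCA for AP-1, the last 2 reading as the same pattern on both strands. The first was in 3.99% of all 27025 genes with a window and in 16 of 31 such genes of the type I interferon list. Of the members, 3 of 7 held it: Slfn5, Slfn8 and Slfn9. Each is shown with 25 bases on both sides and the match in capitals, in the direction of the gene, because these 3 are the long members and Slfn8 and Slfn9 carry the match in closely similar surroundings. Their places are chr11:82951922-82951981 (plus strand), chr11:83020824-83020883 (minus strand) and chr11:82991841-82991900 (minus strand).
Slfn5: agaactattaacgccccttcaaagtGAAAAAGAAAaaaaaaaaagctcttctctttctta
Slfn8: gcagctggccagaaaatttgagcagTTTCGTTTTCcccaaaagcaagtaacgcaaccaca
Slfn9: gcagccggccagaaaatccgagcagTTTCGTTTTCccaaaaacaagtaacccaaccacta
None of these 3 genes passed the test, and the windows of Slfn1, Slfn2 and Slfn3 held none of the 3 letter patterns. The interferon-gamma-activated site letters were in 0 of 7 members (9.55% of all genes with a window). The AP-1 letters were in 1 of 7, Slfn4 (8.97% of all genes with a window), shown here at chr11:83175127-83175183 on the plus strand.
Slfn4: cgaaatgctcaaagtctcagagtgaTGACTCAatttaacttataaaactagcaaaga
A match is a description of letters and does not show that a factor binds there.

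All 7 members lie in a single cluster on chromosome 11, from 82951349 to 83215154 (263.8 kb), with the long members first, then Slfn2 and Slfn1, then Slfn4 and Slfn3. Within 250 kb of a member, 41 other genes are annotated, 23 had a row and 11 were tested. The edgeR fit called 0 of these 11, with 0 at an unadjusted p under 0.05, and their log2 differences ran from -0.46 to 0.56 with a median of 0.12. The Slfn1 difference of 1.13 was thus outside the range of its tested neighbours, among which the smallest edgeR adjusted p was 0.37. Slfn14, the further Schlafen gene beside the cluster, had counts of 0, 0 and 0 in WT and 0, 0 and 2 in MAVS KO and was not tested.

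**Figure D4:**
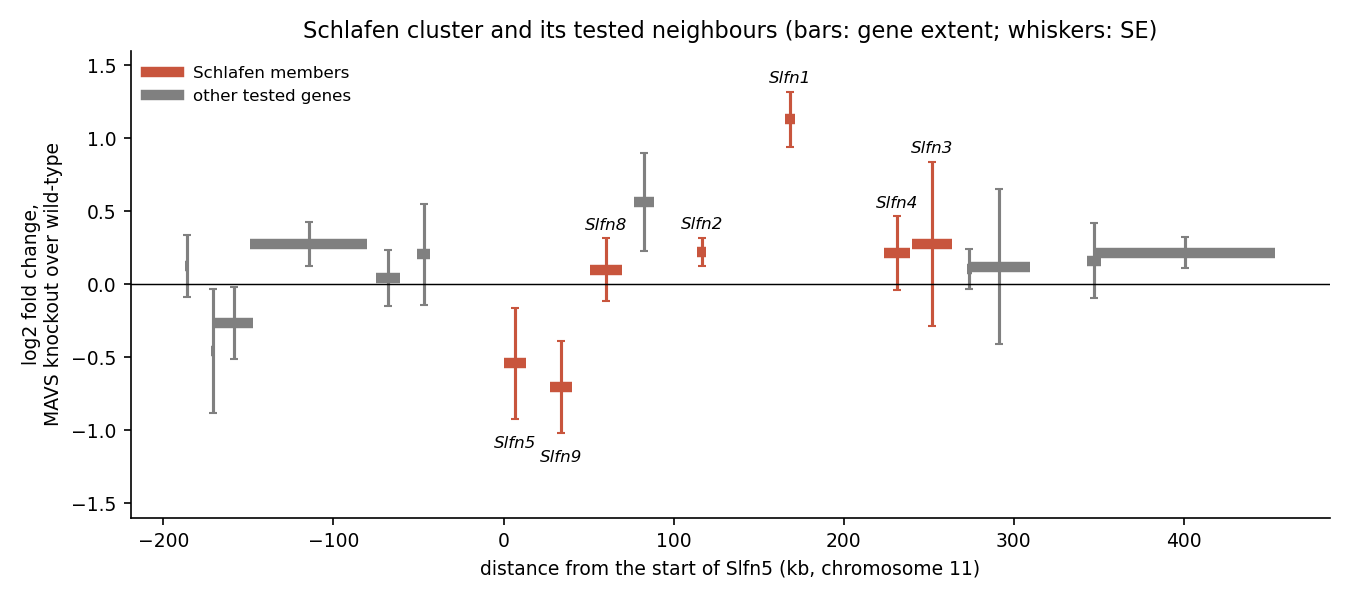
Log2 difference (MAVS KO against WT) of the Schlafen genes and their tested neighbours, by distance along chromosome 11 from the start of Slfn5 in kb; bars span each gene and whiskers are SE. Slfn1 at 1.13 is the highest point and Slfn9 at -0.70 the lowest; the 11 neighbours lie between -0.46 and 0.56.

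Genes of the pathways that act around the Schlafens gave a mixed picture, and these lists share members such as Socs1, Irf1 and Samhd1. Of 42 type I interferon-stimulated genes tested, 3 rose and 0 fell, with a median log2 difference of 0.18: the antiviral enzyme Rsad2 (1.19, edgeR adjusted p = 0.0219), the DNA sensor family gene Ifi204 (0.79, adjusted p = 0.0327) and the translation inhibitor Ifit2 (0.87, adjusted p = 0.0443). That is 3 of 42 beside the 1.76% called higher among all genes, with 14 of 42 values below 0. The count was 0 without WT replicate 2, MAVS KO replicate 1 or MAVS KO replicate 2, 1 without WT replicate 3 or MAVS KO replicate 3, and 1 with library size alone; the median was -0.0049 without WT replicate 2. Rsad2 passed in 2 of these 6 fits without 1 library, and Ifi204 and Ifit2 in 1 each. Of 24 interferon-gamma-induced genes tested, 7 rose and 0 fell, beside the same 1.76%, with a median of 0.68. Among them were Serpina3g, a protease inhibitor (1.08, edgeR adjusted p = 0.0137), Cd274, which encodes PD-L1 (1.15, adjusted p = 0.0164), and the guanylate-binding protein gene Gbp2 (1.21, adjusted p = 0.0203). The count fell to 1, 1 and 0 without MAVS KO replicate 1, 2 and 3 and to 2 without WT replicate 1, with medians between 0.50 and 0.88 over the 6 fits without 1 library; it was 4 with library size alone. Serpina3g passed in 4 of those 6 fits, and Cd274 and Gbp2 in 2 each. The Slfn1 value of 1.13 lay above the medians of both lists, and the Slfn2 value of 0.22 lay between them. Single genes of both lists, named for their small p, had values near that of Slfn1, such as Rsad2 (1.19) and Cd274 (1.15). Monocyte and mature dendritic cell marker sums were higher in the same libraries, although 4 of 8 monocyte genes had values below 0. Macrophage genes had a median of 0.32, with 7 of 10 values above 0. The part of these markers in the lists was not tested.

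Of 21 tested genes for interferons, their receptors and signal path, the edgeR fit called 0. At an unadjusted edgeR p under 0.05 there were 5 of 21, beside 16.0% of all tested genes. DESeq2, which called 738 genes in all, called 3, and without WT replicate 3 edgeR called 3. Socs1, the feedback inhibitor of JAK kinases, was at 1.09 (edgeR adjusted p = 0.0541). Of 19 Toll-like receptor and NF-kB induced genes, 7 rose and 0 fell, beside 1.76% of all tested genes called higher, with a median of 0.59. These included Acod1, which makes itaconate (1.78, edgeR adjusted p = 0.00783), and the cytokine gene Il1a (0.97, adjusted p = 0.00783), both of which passed in all 6 fits without 1 library. Il1a lies near Mavs, on chromosome 2 at 129299610 to 129309972 (GRCm38). The part of this nearness to the knocked-out gene in the Il1a difference was not tested. The count fell to 2 without MAVS KO replicate 2 or 3 and to 4 without WT replicate 1, with medians between 0.48 and 0.70.

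Among genes tied to Schlafen functions, the proliferation list moved the other way from Slfn1. Of its 20 genes 10 fell and 0 rose, beside 1.05% of all tested genes called lower, and the median was -0.81. Those that fell included the replication helicase subunits Mcm5 (-1.11, edgeR adjusted p = 0.0164), Mcm2 (-1.06, adjusted p = 0.0175) and Mcm7 (-1.14, adjusted p = 0.0221). The count was 0 without any 1 of the 3 MAVS KO libraries and 3 without WT replicate 1 or 2, while the median stayed between -0.99 and -0.69. Mcm5 and Mcm2 passed in 3 of these 6 fits and Mcm7 in 1. B cell and Flt3 levels were lower in the same libraries, and their part in it was not tested. The lymphocyte quiescence list had 0 of 14 called by edgeR and a median of -0.032. At an unadjusted edgeR p under 0.05 there were 2 of 14, beside 16.0% of all tested genes. DESeq2, which called 738 genes in all, called 1 of the list. In it Btg1, an anti-proliferative gene, was at 0.83 (edgeR adjusted p = 0.0616) and Foxo3 at -0.59 (adjusted p = 0.297). The genes for transfer RNA cleavage and protection had 0 of 9 called by edgeR, 1 called by DESeq2 and a median of 0.0044. At an unadjusted edgeR p under 0.05 there were 2 of 9, beside the same 16.0%. Samhd1, an interferon-induced dNTP hydrolase placed in that list and in the type I list, was at 0.54 (edgeR adjusted p = 0.0673).

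**Figure D5:**
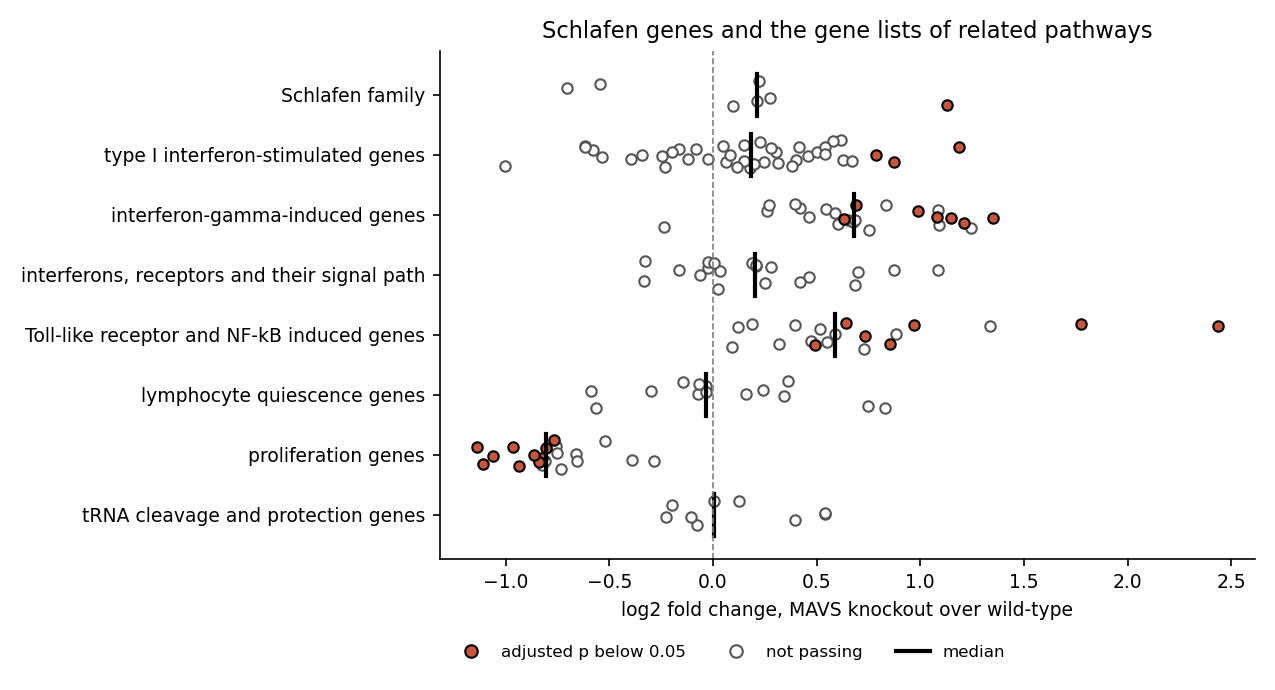
Log2 differences (MAVS KO against WT) of the Schlafen genes and of the genes in 7 related lists, 1 point a gene, filled where the edgeR adjusted p was below 0.05, with a bar at each median. The interferon-gamma list (median 0.68) and the Toll-like receptor list (0.59) lie to the higher side, the proliferation list (-0.81) to the lower side, and the Schlafen genes (0.21) and the type I list (0.18) close to 0.

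Genes with the most similar pattern were ranked by Pearson's r of log2 CPM over the 6 libraries, among 8794 protein-coding genes with a mean of at least 5 CPM; with 6 points that share depth and group, high values are common and are given as a description. Slfn2 was closest to B2m (r = 0.999) and H2-T23 (r = 0.998), the class I light chain and a non-classical class I heavy chain. B2m was at 2701, 1963 and 2551 CPM in WT and 3267, 4138 and 3927 CPM in MAVS KO. Its libraries had the same order within each group as those of Slfn2 but a steeper step (log2 difference 0.65, edgeR adjusted p = 0.0327). B2m lies on the chromosome of Mavs, chromosome 2, at 122147686 to 122153083 (GRCm38). The part of this position in the B2m difference was not tested. Slfn1 was closest to Dpm2 and Mettl9 (both r = 0.993), whose own differences of 0.13 and 0.39 did not pass; 323 genes reached r of 0.9 with Slfn1 and 307 with Slfn2. Slfn8 was closest to Azi2 (r = 0.995) and Slirp (0.978), Slfn9 to Msto1 and Ccdc84 (both 0.990), Slfn4 to Dhrs7 (0.993) and Psmb6 (0.991), Slfn3 to Ddx28 (0.988) and Tpd52l2 (0.986), and Slfn5 to Tnfsf9 (0.965) and Phc3 (0.961). Fewer genes followed Slfn5, 19 at r of 0.9 or more, than any other member. Within the family Slfn1 and Slfn2 ran together (r = 0.92), and Slfn9 ran against both (-0.761 and -0.705), while Slfn8 and Slfn9 were unrelated over these libraries (-0.0824).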

How the data were processed

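Bulk RNA-seq of dendritic cells from MC38 tumours was analysed in 6 libraries, 3 WT and 3 MAVS KO, grouped by the labels. The deposited table holds raw counts per Ensembl gene, which the authors made before deposit; it has 26519 genes and different totals per library. The submitters' processing notes name HISAT2, HISAT, HTSeq, DESeq2 and the mm10 build; no source used here gives their settings, the annotation release or the strand setting. Per the labels' protocols, RNA was extracted with Trizol.

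Symbols, positions and lengths came from GENCODE M21 (GRCm38; 26383 identifiers matched, 136 did not). The test was edgeR 4.0.16 (R 4.3.3): filterByExpr (minimum count 10, total 15), TMM, quasi-likelihood F test without block, Benjamini-Hochberg over 12580 genes, threshold 0.05. CPM are TMM-scaled. Counting error is lowest for Slfn2 (5658 to 7760 counts a library) and highest for Slfn3 (11 to 38). Ratios used exact permutation tests. Start windows and their sequences are from RefSeq. On simulated counts (12247 genes tested, same design) the fit recovered 56% of genes changed 2-fold and 16.7% of those changed 1.5-fold; 7.52% of its calls were false. No pairing by replicate number was detected (correlations of deviations 0.0383, 0.0866 and -0.0428), but with 3 libraries a group these values cannot exclude it.

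Alternatives were DESeq2 1.42.0, limma-voom (limma 3.58.1), other scalings and filters, robust dispersion, a replicate block and leaving out each library. The genes named are the 7 members, Mavs, up to 4 genes of each list with the smallest p (1 is not reported here), and the 2 genes most like each member; other Schlafen rows and markers were named after their values were seen. The members and lists were chosen with earlier results of these data known.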

Additional observations from a re-analysis of the deposited data

How the results depend on the processing

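Slfn1 was called under all 8 other settings (log2 difference 0.96 to 1.14, adjusted p = 8.59e-10 to 0.0225) and in 3 of 6 fits without 1 library (1.02 to 1.33, edgeR adjusted p = 0.0111 to 0.0889), so that 0 to 1 members were called in those 6; no other member was called in any of these fits. With the replicate block, although the replicate numbers were not found to pair the libraries, 414 genes were called (264 higher) and Slfn1 stood at 1.14 (edgeR adjusted p = 0.00569). The edgeR fit called 354 genes, 222 higher and 132 lower. It called 924 (531 higher, 393 lower) with no filter and 443 (102 higher, 341 lower) with library size alone; DESeq2 called 738 (412 higher, 326 lower). Without 1 library the counts were 36 to 277, with 22 to 181 higher and 9 to 96 lower. Signs turned only for values that did not pass: Slfn3 without MAVS KO replicate 2 and Slfn8 without WT replicate 2, without MAVS KO replicate 2 (-0.0013) and with library size alone (-0.067). Among the genes most like the members, library size alone turned Dpm2 (-0.040), Ddx28 (-0.10), Tpd52l2 (-0.11), Dhrs7 (-0.083), Psmb6 (-0.060), Azi2 (-0.11) and Slirp (-0.041); Ddx28 and Tpd52l2 also turned without MAVS KO replicate 2, and Azi2 and Slirp without WT replicate 2. Without 1 library the values ran from -0.23 to 0.59 for Slfn3, -0.11 to 0.23 for Slfn8, -0.038 to 0.16 for Ddx28, -0.021 to 0.14 for Tpd52l2, -0.066 to 0.12 for Azi2 and -0.032 to 0.22 for Slirp. The cause was not tested. Depth limits Slfn3 and Slfn9 most.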
